A study of Mus musculus with 4 samples.

Results

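The alpha-globin and beta-globin gene clusters of the mouse were examined in Hi-C data from Stag2 knock-out and Stag2 wildtype haematopoietic progenitor cells. Each cluster was taken as a fixed interval of the mm9 build with 1 Mb on each side, chromosome 11 from 32.05 to 32.25 Mb for alpha-globin and chromosome 7 from 110.9 to 111.06 Mb for beta-globin. By bin midpoint the intervals held 10 and 8 bins of 20 kb, together 18 of the 131957 bins listed and of the 117252 scored in every library. The flanks added 100 bins to each, and every bin of the intervals and flanks was scored in all 4 libraries. There were 2 libraries labelled Stag2 knock-out and 2 labelled Stag2 wildtype, all from lineage-depleted bone marrow and cut with the enzyme DpnII. The labels give no strain, age, sex or means of deletion. They also do not say that libraries of one genotype are different animals, and the spread behind each p-value is then that of these libraries and could be technical. The scores hold no measure of gene expression, so neither the deletion nor the labelled cell type could be checked against marker genes.

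Haemoglobin is built from alpha-like and beta-like chains encoded by these separate clusters, each of which carries embryonic and adult genes. In red cell precursors the alpha-globin genes are driven by enhancers on one side of the cluster, several of them inside introns of the neighbouring gene Nprl3, and the beta-globin genes by a group of enhancers called the locus control region. Stag2 is a subunit of cohesin, the complex that extrudes chromatin loops until it meets CTCF, and the alpha-globin cluster is a textbook case of genes and enhancers held inside one such domain. In mouse RefSeq (GRCm38.p6) the order along chromosome 11 runs from Il9r, a cytokine receptor gene, through Snrnp25, Rhbdf1, the DNA repair gene Mpg and Nprl3, which encodes an inhibitor of mTORC1 signalling, to Hba-x, Hba-a1, Hbq1b, Hba-a2 and Hbq1a, followed by Sh3pxd2b. On chromosome 7 the order is Hbb-bt, Hbb-bs, Hbb-bh2, Hbb-bh1 and Hbb-y. Hba-x and Hbb-y are embryonic genes, and Hba-a1, Hba-a2, Hbb-bs and Hbb-bt are adult genes. The surroundings differ: of the 20 nearest protein-coding genes on each side, olfactory receptor genes made up 20 below and 16 above the beta-globin genes, and 0 on both sides of the alpha-globin genes.

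Promoter windows of an embryonic and an adult gene of each cluster are printed to show sequences of the genes in these clusters. They run from 250 bases before to 50 bases after the RefSeq start site, in GRCm38.p6 coordinates, which are not those of the mm9 profiles, and they were not placed in the bins. Capitals mark AGATAA, a form of the site bound by GATA factors; CACCC, a core bound by KLF factors; the box CCAAT; and the TATA box form TATAAA, searched on both strands; no marked copies overlap in these 4 windows.
Hba-x (chr11:32276350-32276649, plus strand): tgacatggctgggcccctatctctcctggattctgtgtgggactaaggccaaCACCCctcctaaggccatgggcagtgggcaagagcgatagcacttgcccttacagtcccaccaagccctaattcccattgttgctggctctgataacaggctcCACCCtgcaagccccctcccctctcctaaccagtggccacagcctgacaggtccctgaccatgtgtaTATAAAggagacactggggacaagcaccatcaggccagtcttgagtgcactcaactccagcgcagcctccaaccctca
Hba-a1 (chr11:32283422-32283721, plus strand): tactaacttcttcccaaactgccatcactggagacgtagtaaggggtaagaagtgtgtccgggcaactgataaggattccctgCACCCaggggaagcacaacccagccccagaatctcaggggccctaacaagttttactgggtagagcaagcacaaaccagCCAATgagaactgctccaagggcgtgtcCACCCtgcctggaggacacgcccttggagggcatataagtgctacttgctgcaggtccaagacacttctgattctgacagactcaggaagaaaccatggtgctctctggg
Hbb-y (chr7:103853158-103853457, minus strand): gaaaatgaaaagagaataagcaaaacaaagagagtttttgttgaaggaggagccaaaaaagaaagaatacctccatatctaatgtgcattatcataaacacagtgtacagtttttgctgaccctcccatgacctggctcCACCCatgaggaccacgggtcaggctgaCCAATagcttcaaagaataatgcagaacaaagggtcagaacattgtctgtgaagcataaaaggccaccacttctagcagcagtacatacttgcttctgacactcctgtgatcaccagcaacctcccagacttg
Hbb-bs (chr7:103827879-103828178, minus strand): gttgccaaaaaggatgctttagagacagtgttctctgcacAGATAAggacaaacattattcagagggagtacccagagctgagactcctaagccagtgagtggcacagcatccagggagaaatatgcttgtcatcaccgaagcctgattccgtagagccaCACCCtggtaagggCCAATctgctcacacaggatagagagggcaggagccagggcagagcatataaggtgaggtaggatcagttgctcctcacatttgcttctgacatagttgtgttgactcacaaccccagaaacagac
Of 12 globin gene symbols looked up, 9 had a promoter entry, and Hbb-b1, Hbb-b2 and Hbb-bh1 had none. CACCC stood in the windows of Hba-x, Hba-a1, Hbb-y and Hbb-bs and in 57.5% of 32851 windows of that length in the table. CCAAT stood in 3 of the 4, all but Hba-x, and in 37.4% of all windows. AGATAA stood in Hbb-bs alone among the 4 and in 11.2% of all windows, and TATAAA in Hba-x alone and in 13.6%. Only these exact strings were searched, so a window without one may hold another form of the same site. The windows of Hba-a1 and Hba-a2 shared an unbroken run of 297 bases, and the profiles describe the cluster as a whole, since a 20 kb bin does not separate neighbouring genes. The windows of Hbb-bs and Hbb-bt were 73.0% identical.

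The measurement was the insulation score, which is low where few contacts cross a bin and whose local minima mark domain boundaries. Single libraries had scores in 117486 to 120151 bins of 20 kb. The files hold no read numbers, so the depth behind a score is unknown and its counting error could not be given. Over all bins the scores spread more widely in knock-out, with SDs of 0.452 and 0.464, than in wildtype, with SDs of 0.432 and 0.438. Neighbouring bins varied together, so counts of bins are not counts of independent measurements.

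The score of the alpha-globin interval was lower in knock-out than in wildtype along its whole length. Its mean was -0.364 and -0.373 in the knock-out libraries, against -0.222 and -0.249 in the wildtype libraries. The genotypes did not overlap, and the knock-out libraries lay 0.00948 apart. The genotype means were -0.368 ± 0.00671 in knock-out and -0.235 ± 0.0197 in wildtype (SD, n = 2), a difference of -0.133. An exact permutation test, two-sided, gave p = 0.333, the smallest that 2 against 2 libraries allow. In 10 of the 10 bins the knock-out scores were both below the wildtype scores, a pattern seen in 34.8% of all bins. That pattern ran on beyond the interval for 20 bins in a row, from 31960001 to 32360000.

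Limma's test across all 117252 bins, with Benjamini-Hochberg adjustment and a threshold of 0.05, called 7 of the 10 alpha-globin bins lower and 0 higher, where all bins were called lower in 11.2% and in either direction in 22.4%, and those of chromosome 11 were called lower in 14.1%. Before adjustment 10 of 10 bins had limma p below 0.05, but the share of all bins at that level is not given, so this count has no baseline. The 7 called bins were neighbours, from 32080001 to 32220000, with limma adjusted p from 0.0237 to 0.0444. The median difference over the 10 bins was -0.133, against -0.00721 over all bins, and the median standard error was 0.0397. The call count was 0 without wildtype replicate 1 (2 bins at unadjusted p below 0.05), 0 without wildtype replicate 2 (9 bins), 4 without knock-out replicate 2 and 0 after each library was scaled to unit SD (7 bins). The mean difference stayed between -0.147 and -0.119 when any one library was left out. No share of all bins is given for these or later alternative fits. A count under them therefore has no baseline and cannot be read as particular to these bins.

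The largest difference lay in the middle of the alpha-globin interval, between the Hba genes and its lower end. From 32140001 to 32160000 the score was -0.326 and -0.335 in the knock-out libraries, against -0.162 and -0.195 in the wildtype libraries. The difference there was -0.152 with a standard error of 0.0391 and a limma adjusted p of 0.0237. The bin from 32180001 to 32200000, where the rule places the Hba genes, had -0.342 and -0.349 in knock-out, against -0.202 and -0.227 in wildtype. It differed by -0.131 with a standard error of 0.0392 and a limma adjusted p of 0.0391. The bins at the ends changed least, by -0.110 from 32040001 to 32060000 and by -0.118 from 32220001 to 32240000, and neither was called, nor was the bin between 32060001 and 32080000 at -0.122. The other called bins differed by -0.139 at 32080001, -0.132 at 32100001, -0.143 at 32120001, -0.149 at 32160001 and -0.134 at 32200001. In both genotypes the scores formed a low rise in the middle of the interval with a dip towards each end.

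**Figure D1:**
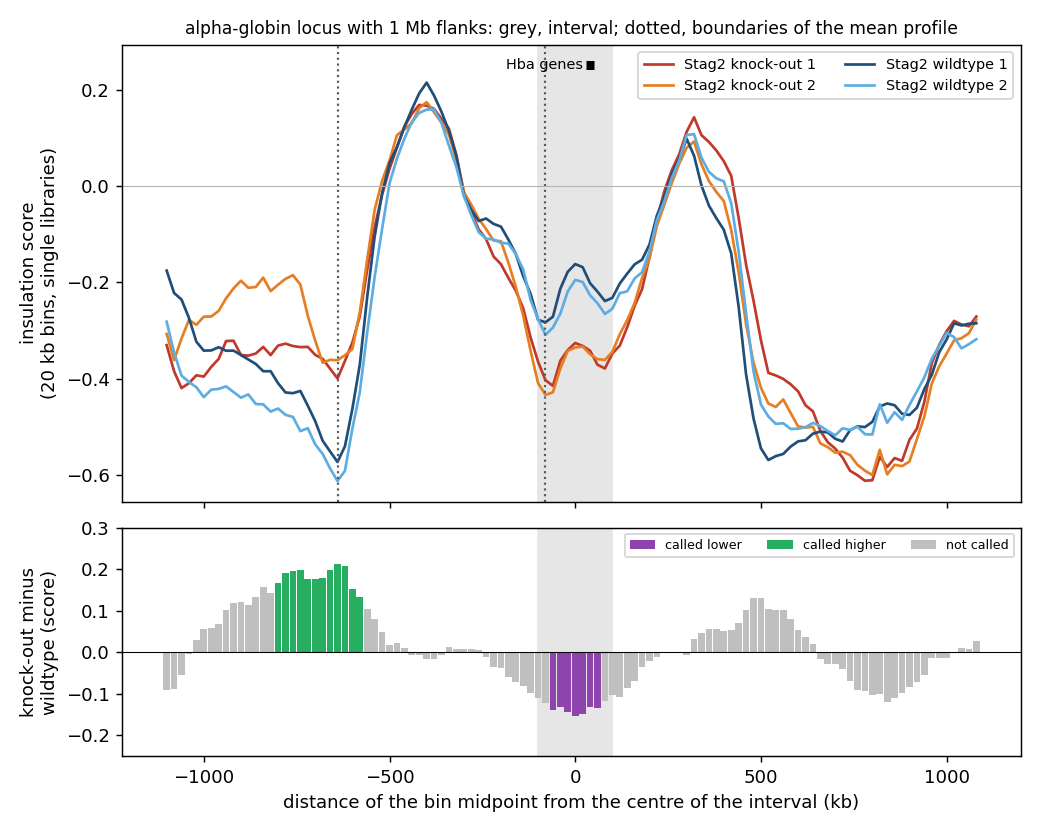
Insulation score of each library in 20 kb bins (upper panel) and the knock-out minus wildtype difference with limma calls coloured (lower panel), against distance in kb from the centre of the alpha-globin interval. Within the grey interval both knock-out lines lie below both wildtype lines in 10 of 10 bins, with a mean difference of -0.133, and about 640 kb below the centre they lie above.

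The means of the alpha-globin flanks were not lower in knock-out in this way. The mean of the 1 Mb below was -0.204 and -0.153 in the knock-out libraries, against -0.210 and -0.264 in the wildtype libraries. There the direction was the opposite one, with a difference of 0.0587. The mean of the 1 Mb above was -0.303 and -0.336 in the knock-out libraries, against -0.323 and -0.304 in the wildtype libraries. The genotypes overlapped there. In 20 of the 50 bins above the interval the knock-out scores were both below the wildtype scores, and in 8 both above. Over all bins these patterns held in 34.8% and 31%. A stretch of such lower bins, chosen after its values were seen, ran from 32820001 to 33100000. None of its bins was called, and the difference was -0.119 at 32980001 (limma adjusted p = 0.0728). Measured against the mean of both flanks together, the interval stood at -0.110 and -0.128 in knock-out and at 0.0452 and 0.0346 in wildtype. That contrast differed by -0.159 between genotypes (exact permutation p = 0.333). In knock-out the interval mean of -0.368 lay below the lower flank at -0.179 and the upper flank at -0.320. In wildtype the interval mean of -0.235 lay near the lower flank at -0.237 and above the upper flank at -0.314.

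One stretch of the lower flank rose in knock-out. Limma called 12 of its 50 bins higher and 0 lower, where all bins were called higher in 11.2% and those of chromosome 11 in 13.4%. In 21 of the 50 bins the knock-out scores were both above the wildtype scores, a pattern seen in 31% of all bins. The 12 bins ran without a gap from 31340001 to 31580000, a length of 240 kb, and their mean was -0.342 and -0.285 in the knock-out libraries, against -0.472 and -0.520 in the wildtype libraries. The highest difference, 0.212 with a limma adjusted p of 0.0115, lay from 31500001 to 31520000. The 50 bins above the interval had no limma call, with adjusted p of 0.0728 or more. Over both flanks the count of 12 became 0 without wildtype replicate 2 (16 bins at unadjusted p below 0.05), 6 without wildtype replicate 1 and 20 after scaling to unit SD.

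The same bin was the nearest boundary below the alpha-globin interval, 530 kb from its edge, and it was shallower in knock-out. A boundary was a minimum of the mean profile of the 4 libraries over 10 bins on each side, at least 0.2 deep against the highest scores on each side. Its depth was 0.311 and 0.334 in the knock-out libraries, against 0.460 and 0.452 in the wildtype libraries. The libraries fell apart by genotype, with a difference of -0.133 (exact permutation p = 0.333). With 5 bins on each side the difference was -0.0749. By the same rule in single libraries the boundary stood in this bin in knock-out replicate 1 and both wildtype libraries, and from 31460001 to 31480000 in knock-out replicate 2.

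A weak boundary lay inside the alpha-globin interval, from 32060001 to 32080000, towards the end away from the Hba genes. Its depth was 0.213 and 0.260 in the knock-out libraries, against 0.177 and 0.181 in the wildtype libraries. It was thus deeper in both knock-out libraries, by 0.0574 on average (exact permutation p = 0.333). With 15 bins on each side the difference was 0.109. No boundary was found inside the interval with 5 bins on each side, with a minimum depth of 0.3 or by the wildtype profile. In single libraries the rule found a boundary inside the interval in both knock-out libraries, but in neighbouring bins. It lay from 32080001 to 32100000 in replicate 1, at a depth of 0.223, and from 32060001 to 32080000 in replicate 2, at 0.260. Neither wildtype library had one, and their depth at 32060001 fell just short of the minimum of 0.2. A boundary present by this rule in knock-out and not in wildtype therefore rests on where the minimum is set. Within 1 Mb above the interval the mean profile had no boundary. The nearest, 1370 kb away from 33620001 to 33640000, had a depth of 0.235 and 0.218 in knock-out, against 0.173 and 0.224 in wildtype, and the genotypes overlapped. In single libraries the rule placed a boundary within that flank in knock-out replicate 1, from 32920001 to 32940000 at a depth of 0.241, and in wildtype replicate 1, from 32660001 to 32680000 at 0.345. Each of the 6 other ways of placing the nearest boundary above chose another bin, with differences in depth from -0.0397 by the wildtype profile (bin 32680001) to 0.169 with 15 bins on each side (bin 32920001), so no single boundary was established there.

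The beta-globin interval also had a lower score in knock-out, from a higher level. Its mean was -0.0565 and -0.0378 in the knock-out libraries, against 0.129 and 0.108 in the wildtype libraries. Both knock-out libraries lay below 0 and both wildtype libraries above it. The genotype means were -0.0471 ± 0.0132 in knock-out and 0.119 ± 0.0144 in wildtype (SD, n = 2), a difference of -0.166 (exact permutation p = 0.333). The knock-out scores were both below the wildtype scores in 8 of 8 bins, a pattern seen in 34.8% of all bins. It held in 11 neighbouring bins in a row from 110840001 to 111060000.

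Limma called 7 of the 8 beta-globin bins lower and 0 higher, where bins of chromosome 7 were called lower in 10% and higher in 11.3%. Before adjustment 8 of 8 had limma p below 0.05, for which no share over all bins is given. The called run began 60 kb below the interval and held 10 bins from 110840001 to 111040000, with limma adjusted p from 0.00742 to 0.0327. The median difference of the 8 bins was -0.177, against -0.00721 over all bins. The largest difference, -0.202 with a standard error of 0.0358 and a limma adjusted p of 0.00742, lay in the bin from 110900001 to 110920000. Its score was -0.0831 and -0.0408 in the knock-out libraries, against 0.140 and 0.139 in the wildtype libraries. The next bins differed by -0.193 at 110920001, -0.179 at 110940001, -0.154 at 110960001, -0.187 at 110980001, -0.175 at 111000001 and -0.135 at 111020001. The smallest difference lay at the upper end, where the bin from 111040001 to 111060000 had -0.105 and -0.0573 in knock-out, against 0.0496 and -0.00741 in wildtype. That bin differed by -0.102 and was not called, with a limma adjusted p of 0.0833. Calls fell to 4 of 8 without wildtype replicate 1 and to 4 of 8 without wildtype replicate 2. With scores taken relative to a running mean over 51 bins, limma's calls were 0 in either interval, with 7 beta-globin and 10 alpha-globin bins at unadjusted p below 0.05. The share of all bins called in that fit is not given, so a loss of calls over the whole genome cannot be told apart.

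**Figure D2:**
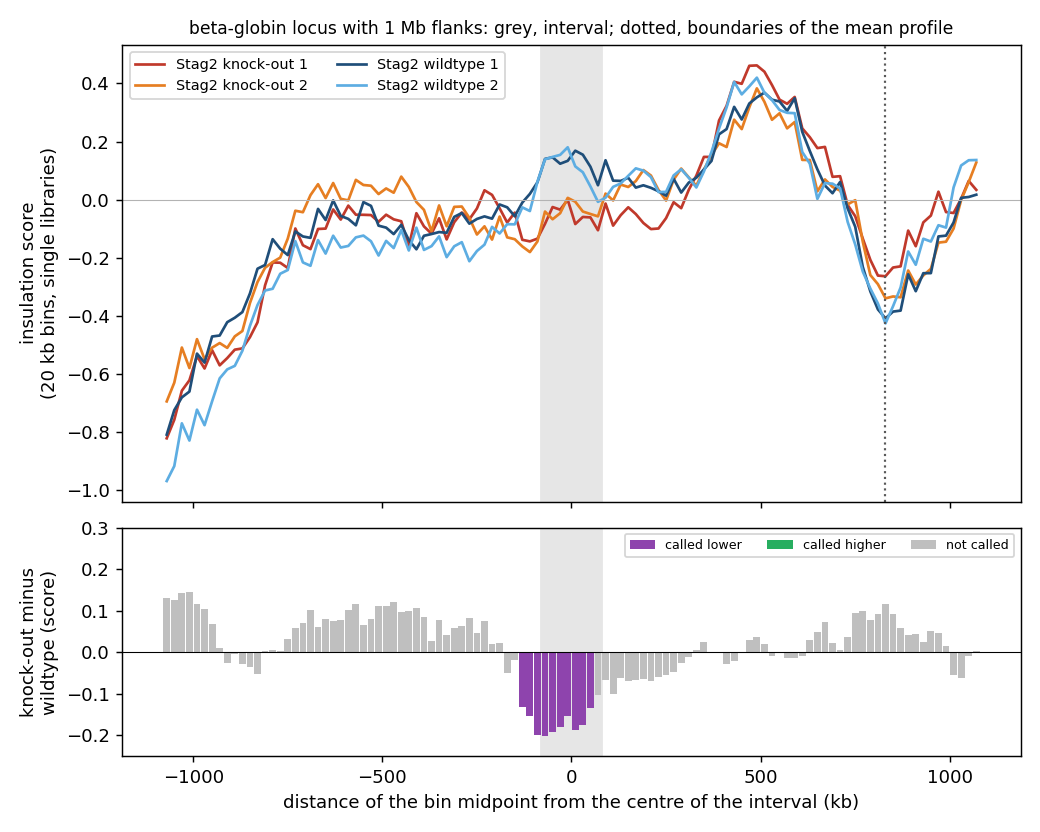
Insulation score of each library in 20 kb bins (upper panel) and the knock-out minus wildtype difference with limma calls coloured (lower panel), against distance in kb from the centre of the beta-globin interval. Inside the grey interval the wildtype libraries form a plateau averaging 0.119 where the knock-out libraries average -0.0471, and the called run of 10 bins sits over the interval and just below it.

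Outside this run the beta-globin flanks showed little that the test could separate. Below the interval the means were -0.220 and -0.168 in the knock-out libraries, against -0.194 and -0.288 in the wildtype libraries. Above it they were 0.0640 and 0.0292 in knock-out, against 0.0296 and 0.0525 in wildtype. The genotypes overlapped on both sides. Limma called 3 of the 100 flank bins, all 3 lower and all next to the interval. Over all bins 22.4% were called in either direction and 11.2% lower. After scaling to unit SD limma called 2 flank bins lower and 8 higher, without a share over all bins for that fit. The count was 11 without knock-out replicate 1, 13 without knock-out replicate 2, 1 without wildtype replicate 1 and 1 without wildtype replicate 2. The largest rise, 0.144 from 109960001 to 109980000, was not called (limma adjusted p = 0.102), and the wildtype libraries there were at -0.660 and -0.829. Relative to the mean of both flanks together the interval stood at 0.0217 and 0.0316 in knock-out, against 0.211 and 0.226 in wildtype. That contrast differed by -0.192 (exact permutation p = 0.333). The flanks were unlike each other, and the knock-out interval mean of -0.0471 lay between the lower flank at -0.194 and the upper flank at 0.0466. The wildtype interval mean of 0.119 lay above both, at -0.241 and 0.0411.

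The beta-globin profile was rougher than the alpha-globin one in every library. The mean step between neighbouring bins, over interval and flanks, was 0.0449 and 0.0463 in knock-out and 0.0417 and 0.0487 in wildtype, against 0.0302 to 0.0310 over the 4 libraries at alpha-globin and 0.0369 to 0.0392 over all bins. The libraries of a genotype also differed more from bin to bin, with an SD of the difference of 0.0947 between the knock-out libraries and 0.0813 between the wildtype libraries, against 0.0762 and 0.0585 over all bins. The part of the olfactory receptor genes around this cluster in these values was not tested.

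The mean profile had no boundary inside the beta-globin interval. The nearest above, 740 kb away from 111800001 to 111820000, was shallower in knock-out. Its depth was 0.385 and 0.407 in the knock-out libraries, against 0.495 and 0.547 in the wildtype libraries, a difference of -0.125 (exact permutation p = 0.333), or -0.0777 with 5 bins on each side. Every one of the 4 libraries had a boundary in that bin by its own profile. The nearest below, 1260 kb away from 109620001 to 109640000, had a depth of 0.722 and 0.801 in knock-out, against 0.818 and 0.893 in wildtype. Its difference of -0.0942 became -0.0547 without knock-out replicate 1 and -0.0570 without wildtype replicate 2, and -0.0605 with 15 bins on each side. Between these, wildtype replicate 1 had a boundary from 111220001 to 111240000 at a depth of 0.214 and wildtype replicate 2 one from 110700001 to 110720000 at 0.233, and the other libraries had neither. The wildtype profile alone also placed the nearest boundary above at 111220001, where the depth differed by 0.00395.

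**Figure D3:**
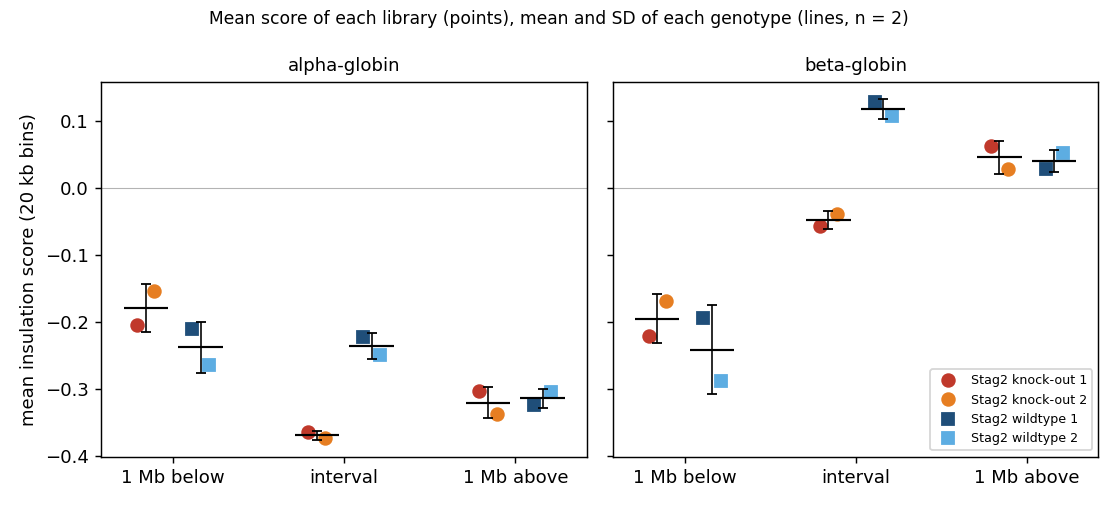
Mean insulation score of each library (points) with the mean and SD of each genotype (lines, n = 2) over the 1 Mb below, the interval and the 1 Mb above, for alpha-globin (left) and beta-globin (right). Only over the intervals are both knock-out points below both wildtype points; in the 1 Mb below alpha-globin they are above.

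The clusters kept their order of score in both genotypes, with alpha-globin below beta-globin. The alpha-globin mean minus the beta-globin mean was -0.307 and -0.335 in the knock-out libraries, against -0.350 and -0.358 in the wildtype libraries. In these 20 kb scores the change was larger at beta-globin by 0.0328 (exact permutation p = 0.333), and the gap ranged by 0.0282 between the knock-out libraries and by 0.00757 between the wildtype libraries. In the 10 kb profiles the order was the other way, with -0.0952 at alpha-globin and -0.0780 at beta-globin, so which cluster changed more is not settled. Leaving out 1 library gave 0.0187 to 0.0469.

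Changes of these sizes were not rare. Of 115585 windows of 10 neighbouring bins over the genome, 10.4% had a mean difference as low as that of alpha-globin or lower. Of 115901 windows of 8 bins, 5.26% were as low as beta-globin. On their own chromosomes the shares were 12.3% for alpha-globin and 3.96% for beta-globin. These windows overlap each other, and the shares describe the genome without a test.

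The 10 kb profiles, given as 1 per genotype and therefore without a test, were lower in knock-out in 20 of 20 alpha-globin bins and 16 of 16 beta-globin bins, where 52.4% of all 10 kb bins were lower. They may rest on the same libraries, so they are not independent evidence. The alpha-globin mean was -0.143 in knock-out and -0.0477 in wildtype, a difference of -0.0952. The difference was largest from 32140001 to 32150000, at -0.116, inside the 20 kb bin with the largest difference. The profile peaked from 32130001 to 32140000 in knock-out, at -0.106, and from 32150001 to 32160000 in wildtype, at 0.00713, and it was lowest from 32070001 to 32080000 in both genotypes. Over the bins that the rule gives to the Hba genes it was -0.121 and -0.143 in knock-out, against -0.0248 and -0.0399 in wildtype. The beta-globin mean was -0.0745 in knock-out and 0.00353 in wildtype. That difference of -0.0780 was less than the -0.166 of the 20 kb scores by over 1.5 times. Along the beta-globin interval it was largest from 110960001 to 110970000, at -0.110, and smallest at the upper end, at -0.0307. The 20 kb scores did not share that maximum, since their difference was largest at 110900001 and their bin at 110960001 differed by -0.154, among the 3 smallest of 8.

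**Figure D4:**
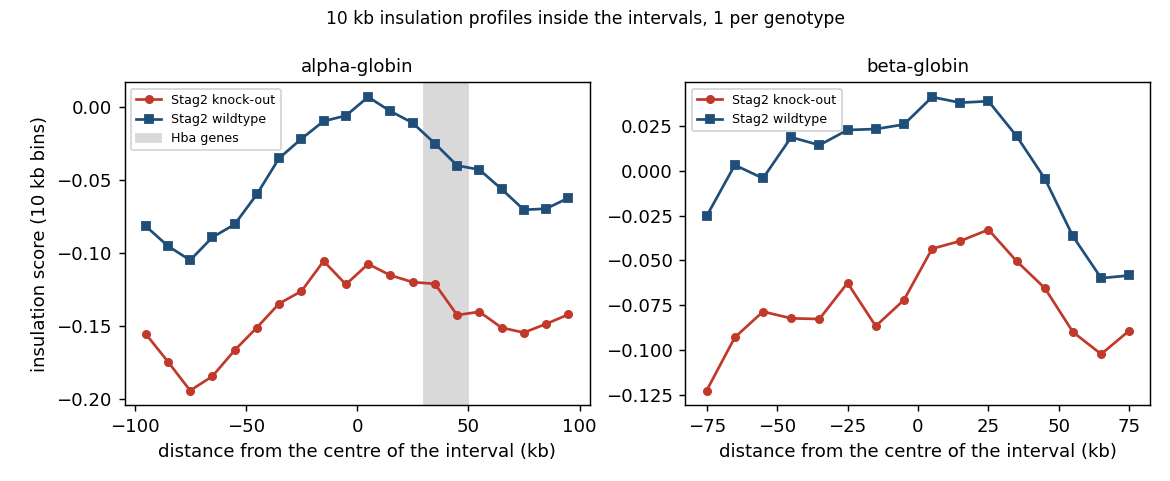
Insulation score in 10 kb bins inside each interval, 1 profile per genotype, against distance in kb from the interval's centre; grey marks the Hba genes. The knock-out profile lies below the wildtype profile in 20 of 20 alpha-globin bins and 16 of 16 beta-globin bins.

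The eigenvector was lower in knock-out than in wildtype in the bins of both clusters, with no change of sign and no test possible. Its sign separates the compartments within a chromosome and was not checked between chromosomes, and it was given as 1 value per genotype in 200 kb bins. At alpha-globin the bin from 32000001 to 32200000, which covers the Hba genes, had 0.00605 in knock-out and 0.0168 in wildtype. The next bin, from 32200001 to 32400000, had 0.0177 in knock-out and 0.0201 in wildtype. At beta-globin the bin from 110800001 to 111000000 had -0.0329 in knock-out and -0.0246 in wildtype, and the bin from 111000001 to 111200000 had -0.0265 in knock-out and -0.0204 in wildtype. Alpha-globin had positive and beta-globin negative values, which do not by themselves place the clusters in different compartments. Of 594 bins of chromosome 11, 9 had a difference as low as the first alpha-globin bin or lower, and of 634 bins of chromosome 7, 19 were as low as the first beta-globin bin. The second bins were less extreme, with 103 of 594 bins as low at alpha-globin and 40 of 634 at beta-globin. None of the 12 bins of either window changed sign. The lower values in knock-out reached into the flanks. They ran without a gap from 31200001 to 32600000 at alpha-globin and from 110800001 to 111800000 at beta-globin, as read after the values were seen. In a bin chosen after its values were seen, from 31800001 to 32000000 beside alpha-globin, the eigenvector was -0.0199 in knock-out and -0.00691 in wildtype, a difference that 3 of 594 bins reached. In another chosen in this way, from 111200001 to 111400000 above beta-globin, it was 0.00045 in knock-out and 0.0100 in wildtype.

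**Figure D5:**
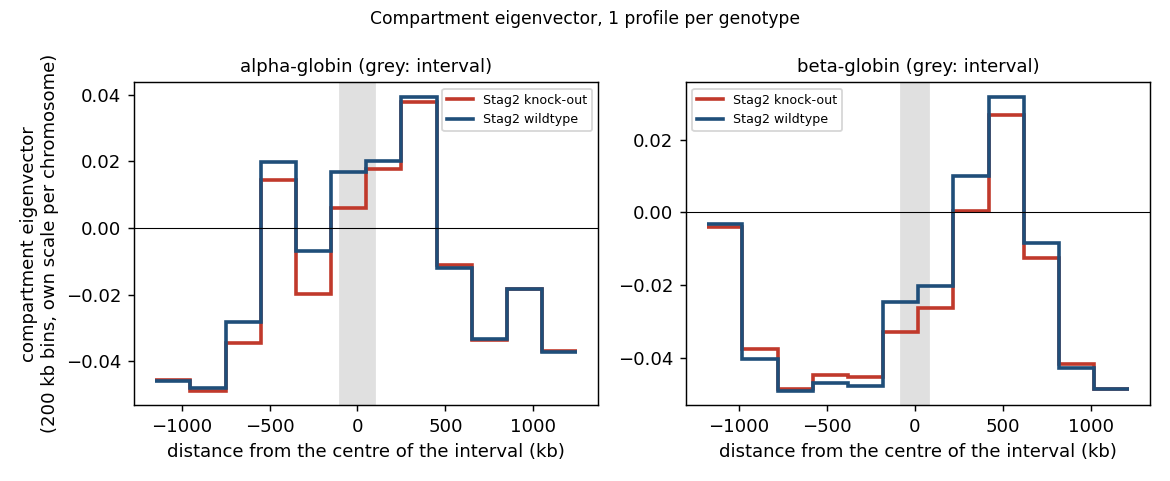
Compartment eigenvector in 200 kb bins, 1 profile per genotype, against distance in kb from the centre of each interval (grey); the scale differs between chromosomes, so the panels are not comparable in height. Over the intervals the knock-out line is below the wildtype line, at 0.00605 against 0.0168 in the bin holding the Hba genes, and no bin changes sign.

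Calls over all bins split by the sign of the wildtype eigenvector, taken as given on every chromosome although its orientation between chromosomes was not checked. In 200 kb bins with a positive wildtype eigenvector 4.81% of 20 kb bins were called lower and 18.5% higher, and the median difference was 0.0347, whereas 7 of 10 alpha-globin bins were called lower. In bins with a negative wildtype eigenvector 17.5% were called lower and 4.02% higher, with a median difference of -0.0543. Of the beta-globin bins, where the eigenvector was negative, 7 of 8 were called lower. The 12 bins called higher below alpha-globin lay in 2 bins of 200 kb with a negative eigenvector, at -0.0488 and -0.0345 in knock-out and at -0.0482 and -0.0283 in wildtype. Whether these stretches differ from others of their compartment was not tested, since neighbouring bins are not independent.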

How the data were processed

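Hi-C libraries of 2 Stag2 knock-out and 2 Stag2 wildtype samples were grouped by the genotype label, with replicate numbers in accession order. The authors deposited an insulation score for each library at 20 kb, and, for each genotype, an insulation score at 10 kb and a compartment eigenvector, also a score, at 200 kb, per the file headers. The submitters' processing notes name mm9 as the build. Aligner, filters, log base, insulation window and pooling are not given in the sources used here. Bins were assigned to an interval by their midpoint.

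Limma 3.58.1 in R 4.3.3 (lmFit, eBayes with a trend) was fitted to the 20 kb scores with genotype as the only term, Benjamini-Hochberg adjusted over 117252 bins. The fit was also run on simulated scores with independent noise of equal spread in every bin. Real neighbouring bins varied together, so that run does not show how the fit behaves on them. Values per library were compared with two-sided exact permutation tests. The intervals, lists and tests were chosen with earlier results of these data known. The text names every bin of the intervals, the extreme called bin in each direction (of all bins where none was called), boundaries and 200 kb bins touching an interval. Flank stretches and bins marked so in the text were named after their values were seen. Alternatives covered single libraries left out, scaling, broad variation, flanks and boundary settings. Erythroid regulator loci were not analysed here. The title suffix T1, carried by 1 library of each genotype, was used as a block in an alternative fit; deviations of libraries with and without it correlated between genotypes with r = -0.0551, so it was not taken to pair them.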

Additional observations from a re-analysis of the deposited data

How the results depend on the processing

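The lower mean score of both intervals in knock-out kept its direction under every alternative run for it. Depth is unknown, and 2 libraries per genotype limit every test. The share of all bins called, or at unadjusted p below 0.05, is not given for any alternative fit. Counts under these fits therefore have no baseline and are not results about the globin bins alone. After a running mean over 51 bins was subtracted, an alternative added after seeing the data for the means, the difference was -0.107 at alpha-globin and -0.139 at beta-globin, while limma called 0 alpha-globin bins, 0 beta-globin bins and 0 bins of either pair of flanks (10, 7, 42 and 21 at unadjusted p below 0.05). After scaling to unit SD limma called 0 alpha-globin bins, 20 in its flanks and 10 in the beta-globin flanks, and the means differed by -0.222 and -0.335 SD. The 10 kb profiles differed by -0.0952 at alpha-globin and -0.0780 at beta-globin, and against the flanks by -0.141 and -0.0970. Within the pairs of libraries without and with the title suffix T1, also added after seeing the data, the difference was -0.142 and -0.124 at alpha-globin and -0.185 and -0.146 at beta-globin.

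Leaving out 1 library, calls ran from 0 to 7 for alpha-globin, 0 to 18 for its flanks, 4 to 8 for beta-globin and 1 to 13 for its flanks. The replicate block by title suffix left 7 calls at alpha-globin and 7 at beta-globin and changed no call count by over 1.5 times. For the nearest boundary above alpha-globin all 6 alternative placements chose another bin. The depth differences there were -0.0397 by the wildtype profile and 0.0314 to 0.169 by the other 5, and 0.00193 without wildtype replicate 1 in the bin reported, so these are not values of one boundary. Above beta-globin the wildtype profile chose another bin, with 0.00395, and the other 5 placements kept the bin, at -0.125 to -0.0777. Below, the difference ran from -0.157 to -0.0749 at alpha-globin over alternative placements and from -0.102 to -0.0605 at beta-globin, where the knock-out profile chose the neighbouring bin. The cause of the lost calls and of both reversals was not tested.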
